A study of Danio rerio with 12 samples.

Results

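The 8 libraries described here were all those labelled MYC, of 12 libraries in the study, and they were compared as 2 sets of 4: MYC 5 to 8 against MYC 1 to 4. Each library was made from EGFP-positive neuroblasts sorted from the tumours of zebrafish that carry a MYC transgene. The other 4 libraries came from fish with a MYCN transgene and served only as a reference level. The labels give no promoter, strain or age, and do not say whether a library stands for 1 fish or a pool. Tumours were broken up mechanically, EGFP-positive cells were sorted into Trizol-LS, ribosomal RNA was depleted, and libraries were read as 2 x 100 bp pairs.

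The labels do not divide the MYC libraries. The division was read from the deposited table itself, in which 202 genes are listed at exactly 0 in all of MYC 1 to 4 and above 0 in MYC 5 to 8, and 419 genes the other way round. A further 850 genes were at 0 in all 8 libraries. The sets were thus chosen by these zeros, which are a description and no finding. Genes at 0 in all 4 libraries of 1 set were therefore left out of the comparison, and 9212 of the 14581 genes in the table were tested. Why the sets differ, whether by fish, sort, library preparation, sequencing run or data processing, cannot be told apart with these labels. All values are FPKM, read fragments scaled by transcript length and by library size, so levels are already per length. The number of reads per library is not known from such values.

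Neuroblastoma arises from the sympathoadrenal lineage of the neural crest, and its cells carry the enzymes of noradrenaline synthesis. Immediate early genes are those a cell switches on within minutes of a stimulus, before any new protein is made. Many encode transcription factors, among them FOS and JUN, which pair as the complex AP-1. Antigen presentation is the display of peptides on MHC molecules, class I on most cells and class II on macrophages, dendritic cells and B cells, and interferons raise it. Tumours also hold immune cells of their own, of which macrophages are commonly the most abundant.

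The sorted cells had the markers of noradrenergic neuroblasts in both sets. The gene dbh, which makes noradrenaline from dopamine, stood at 1299, 1564, 2060.3 and 2632 FPKM in MYC 1 to 4 and 917, 2011, 1691 and 2249.9 FPKM in MYC 5 to 8. For th, the rate-limiting enzyme of catecholamine synthesis, the levels were 402, 400.3, 807 and 636 FPKM in MYC 1 to 4 and 281, 511, 712 and 399 FPKM in MYC 5 to 8. Both genes overlapped between the sets, and so did hand2, a factor of sympathetic neurons, at 1009 to 1541 and 751 to 1780.1 FPKM. Of the level checks for other tissues, star, the cholesterol carrier of steroid-making interrenal cells, was present, at 32.3, 16.4, 23.5 and 13.7 FPKM in MYC 1 to 4 and 18.7, 1.82, 1.08 and 6.99 FPKM in MYC 5 to 8, with overlap. The markers krt4 and col1a1a were low, with krt4 of epithelium at 0.326 to 2.49 FPKM over the 8 libraries and col1a1a of fibroblasts at 0.063 to 0.467 FPKM. Summed marker lists were not all low. The 32 measured keratinocyte and epithelium genes summed to 219 to 309 FPKM in MYC 1 to 4 and 146 to 203 FPKM in MYC 5 to 8. The 32 of muscle summed to 425 to 502 FPKM in MYC 1 to 4 and 311 to 412 FPKM in MYC 5 to 8. Neither of these sums overlapped between the sets, and the difference was not tested. Over the 8 libraries the 18 melanophore genes summed to 297 to 749.6 FPKM and the 26 erythroid genes to 138 to 1263 FPKM, both with overlap. The macrophage gene c1qb stood at 27.99 to 145 FPKM. None of these lists held a call other than that of the macrophages.

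Bulk measures of the libraries overlapped between the sets. FPKM sums, in units of 1000 FPKM, were 567 to 1058 in MYC 1 to 4 and 685 to 1020.2 in MYC 5 to 8 (exact permutation test over 70 splits, two-sided, p = 0.943). Genes at 1 FPKM or more numbered 9018 to 9844 and 8688 to 9258 (exact p = 0.457). Genes listed at 0 numbered 1506 to 2108 and 2022 to 2427, mostly more in MYC 5 to 8. No p is given for these, as the sets were chosen by zeros. Across the genes tested, the first principal component (39.7% of the variance) set MYC 3 and MYC 7 apart from most other libraries. Of the first 3 components only the second (19.9%) divided the sets, with MYC 1 to 4 at 13.4 to 37.13 and MYC 5 to 8 at -26.3 to -14.3. Spearman correlations across genes were 0.899 to 0.963 within MYC 1 to 4, 0.9 to 0.964 within MYC 5 to 8 and 0.88 to 0.948 between the sets. MYC 4 was most like MYC 8, a library of the other set. MYC 3 and MYC 7 thus stand apart in the same way, and some values are also given without them.

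**Figure D1:**
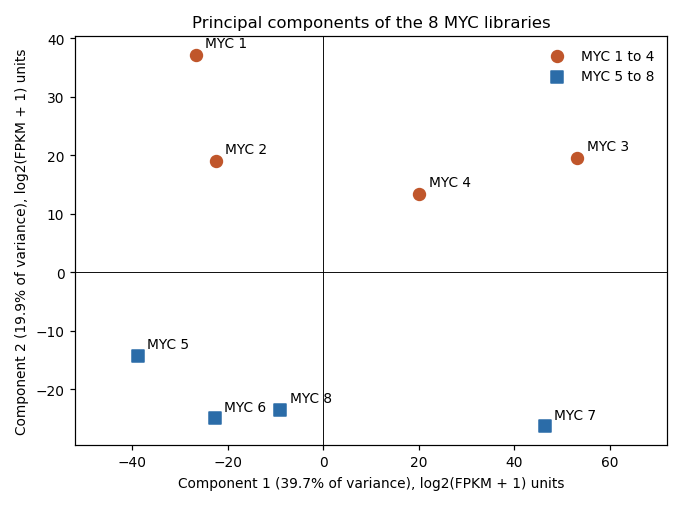
Position of the 8 MYC libraries on the first 2 principal components of log2(FPKM + 1) over the genes tested, with the share of variance on each axis. MYC 3 and MYC 7 lie at 53.2 and 46.4 on the first component, and the second places all of MYC 1 to 4 above 0 and all of MYC 5 to 8 below it.

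Few single genes passed the test between the sets. Of 9212 genes, 16 (0.174%) had an adjusted p under 0.05 in limma, the moderated test used throughout, on log2(FPKM + 1) with Benjamini-Hochberg adjustment. Of these 6 (0.0651%) were higher and 10 (0.109%) lower in MYC 5 to 8. In 211 genes (2.29%) all 4 libraries of MYC 5 to 8 lay above all 4 of MYC 1 to 4, and in 276 (3.0%) all lay below, 487 (5.29%) in all. The median log2 difference over all genes tested was 0.09, and 753 genes (8.17%) had an unadjusted p under 0.05, 279 (3.03%) higher and 474 (5.15%) lower. Among the 218 genes that did not overlap and differed by at least 1 log2 unit, 173 were lower and 45 higher in MYC 5 to 8. The MYCN mean lay nearer to MYC 5 to 8 than to MYC 1 to 4 for 177 of the 276 genes that were lower without overlap, and for 115 of the 211 that were higher. The same share over all genes tested was not taken, so these counts do not show which set MYCN is more like.

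The count depended on how libraries were scaled and weighted. Median-ratio scaling gave 58 genes (11 higher, 47 lower), quantile normalisation 52 (12 and 40) and a common sum 59 (10 and 49). Library weights gave 126 (25 and 101), so the share called higher went from 37.5% to between 16.9% and 23% under these 4 settings. Without MYC 7 the count was 25, and without MYC 8, MYC 6 or MYC 4 it was 6, 7 and 7, and 10 without MYC 1 or MYC 2. Without both MYC 3 and MYC 7 it was 28, a setting added after the data were seen, and cd74b, mpi and rgs13 were no longer among them. With no filter on low values 9 genes were called, 7 of them among the 16, and with all 12 libraries in the fit 31 were called, 11 of them among the 16. Of the 16 genes, 5 (crygn2, gc3, rbp1a, rgs13 and zgc:153118) reached 1 FPKM in all 4 libraries of 1 set and in none of the other, and so entered the test only through the set where they were high. Among the 9177 genes tested without all 35 such genes, 11 (0.120%) were called, and 204 (2.22%) lay above and 248 (2.70%) below without overlap.

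**Figure D2:**
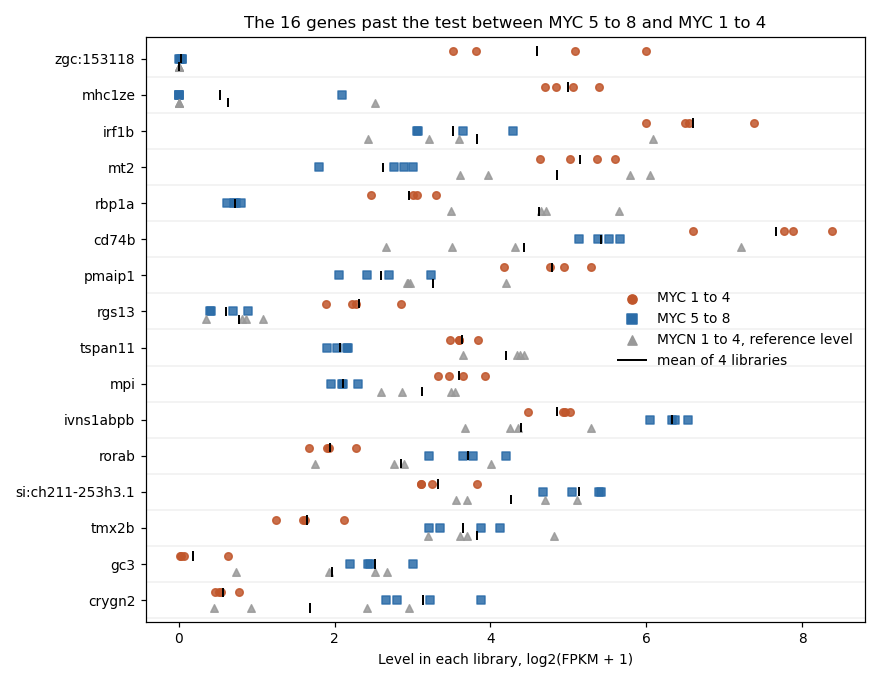
Level of each of the 16 called genes in every library as log2(FPKM + 1), with MYC 1 to 4 as circles, MYC 5 to 8 as squares, MYCN as triangles and a bar at each mean of 4 libraries. In each of the 16 genes the circles and squares do not overlap, while the triangles lie on either side.

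Of the genes called lower in MYC 5 to 8, mhc1ze, irf1b and cd74b have roles in antigen presentation or the interferon response. The MHC class I gene mhc1ze, of the fish-specific Z lineage, stood at 25.1, 27.7, 41.1 and 32.3 FPKM in MYC 1 to 4 and 3.27, 0, 0 and 0 FPKM in MYC 5 to 8. It was listed at 0 in 3 of the 4 libraries of MYC 5 to 8, and the log2 difference was -4.48 ± 0.46 (SE, limma adjusted p = 0.00694). In MYCN it was at 0, 0, 0 and 4.74 FPKM. Class I genes form a family of similar copies, so the split of reads between them is uncertain, and the fitted difference ran from -7.01 to -2.67 with the pseudocount. It kept its call under each of the 19 alternatives that could be run. The one that could not be run left out MYC 5, as mhc1ze is then at 0 throughout that set. It thus stayed in the test only through the 3.27 FPKM of MYC 5, close to the zeros by which the sets were chosen.

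The gene irf1b encodes a factor that turns on interferon-stimulated and class I genes. It stood at 166, 62.6, 89.4 and 92.2 FPKM in MYC 1 to 4 and 7.43, 11.5, 7.32 and 18.5 FPKM in MYC 5 to 8. The lowest library of MYC 1 to 4 was more than 3 times the highest of MYC 5 to 8, and the difference was -3.09 ± 0.36 (SE, limma adjusted p = 0.00777). The call held in 19 of 20 alternatives and was just lost when all 12 libraries shared the estimate of spread (adjusted p = 0.0544). In MYCN 3 irf1b reached 66.9 FPKM, inside the range of MYC 1 to 4, while the other MYCN libraries lay at 4.38 to 11.1 FPKM.

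The invariant chain of MHC class II is encoded by cd74a and cd74b. Of these, cd74b stood at 334, 95.9, 218 and 236 FPKM in MYC 1 to 4 and 44.9, 34.1, 40.5 and 49.8 FPKM in MYC 5 to 8, a difference of -2.24 ± 0.35 (SE, limma adjusted p = 0.0426). Its paralogue cd74a, 885, 237, 722 and 565 FPKM in MYC 1 to 4 and 110.5, 88.5, 137 and 109 FPKM in MYC 5 to 8, had a difference of -2.29 ± 0.38 (SE, limma adjusted p = 0.0505) and did not pass. Neither gene overlapped between the sets. MYCN 3 again stood out among its own group, with 148 FPKM of cd74b and 549 FPKM of cd74a against 5.34 to 19.0 and 15.7 to 45.1 FPKM in the other MYCN libraries. The cd74b call ended without any 1 library other than MYC 2 (adjusted p = 0.0556 to 0.152). It was 0.269 with all 12 libraries in the fit.

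Across the interferon and antigen presentation list, 2 of 35 tested genes were lower by the test (0.109% of all genes), none was higher (0.0651% of all genes) and 33 did not pass. The 2 were irf1b and cd74b, and mhc1ze was not in the list. In 7 genes all of MYC 5 to 8 lay below all of MYC 1 to 4 and in none above, beside 3.0% and 2.29% of all genes. The list's median log2 difference was -0.50, beside 0.09 for all genes, and 12 genes were lower at an unadjusted p under 0.05 with none higher. Without MYC 5 the median was -0.33. Without MYC 3 and MYC 7, 11 of 35 lay lower without overlap (5.25% of all genes) and none higher (10.6% of all genes). Besides those named, irf9, which joins STAT proteins in the interferon-activated complex, stood at 45.5, 27.8, 29.4 and 35.5 FPKM in MYC 1 to 4 and 15.12, 16.1, 15.9 and 19.4 FPKM in MYC 5 to 8 (log2 difference -0.99 ± 0.24 SE, limma adjusted p = 0.123). The interferon-induced GTPase gene gbp1, named after its values were seen, was at 17.1, 6.51, 23.6 and 20.8 FPKM in MYC 1 to 4 and 1.31, 4.09, 5.95 and 4.29 FPKM in MYC 5 to 8, without overlap. The summed level of the 36 measured genes was 3933 to 6024 FPKM in MYC 1 to 4, 2962 to 3509 FPKM in MYC 5 to 8 and 2230.4 to 6202 FPKM in MYCN, where MYCN 3 was the highest. The summed macrophage markers given with the leukocyte lists were also lower in MYC 5 to 8, and their part in the interferon and antigen presentation levels was not tested.

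The other genes called lower in MYC 5 to 8 differ in known role. The gene pmaip1 encodes NOXA, a BH3-only protein that promotes apoptosis by binding MCL1. Its levels were 29.8, 17.1, 38.2 and 26.1 FPKM in MYC 1 to 4 and 3.15, 5.5, 8.46 and 4.32 FPKM in MYC 5 to 8, and the difference was -2.19 ± 0.33 (SE, limma adjusted p = 0.0375). The call ended without any 1 library other than MYC 2 and MYC 7 (adjusted p = 0.0601 to 0.139). The gene mt2 encodes a metallothionein, which binds zinc and copper, and stood at 47.3, 40.5, 23.9 and 31.3 FPKM in MYC 1 to 4 and 5.8, 7.06, 2.49 and 6.41 FPKM in MYC 5 to 8 (log2 difference -2.54 ± 0.33 SE, limma adjusted p = 0.0163). Without MYC 1, MYC 2, MYC 4 or MYC 8 its adjusted p was 0.0506 to 0.0672. MYCN spanned both sets for mt2, from 11.3 to 64.9 FPKM.

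The retinol carrier gene rbp1a was at 7.3, 4.52, 7.01 and 8.85 FPKM in MYC 1 to 4 and 0.632, 0.739, 0.537 and 0.67 FPKM in MYC 5 to 8. No library of MYC 5 to 8 reached 1 FPKM and every library of MYC 1 to 4 was above 4 FPKM. So rbp1a passed the filter only through MYC 1 to 4 and had to differ. The fitted difference was -2.24 ± 0.24 (SE, limma adjusted p = 0.00694). All MYCN libraries were higher still, at 10.2 to 49.2 FPKM. Of the other called genes, tspan11, a tetraspanin of the cell membrane, stood at 11.1, 11.1, 13.3 and 10.2 FPKM in MYC 1 to 4 and 3.52, 2.74, 3.45 and 3.08 FPKM in MYC 5 to 8 (log2 difference -1.56 ± 0.22 SE, limma adjusted p = 0.03). The mannose phosphate isomerase gene mpi, which links mannose with glycolysis, stood at 11.5, 9.03, 14.2 and 10.1 FPKM in MYC 1 to 4 and 3.3, 3.91, 3.26 and 2.89 FPKM in MYC 5 to 8 (log2 difference -1.48 ± 0.24 SE, limma adjusted p = 0.043). Neither overlapped between the sets. The tspan11 call ended without any 1 library other than MYC 5 and MYC 7 (adjusted p = 0.057 to 0.139) and that of mpi without any 1 of the 8 (0.058 to 0.163).

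The last genes called lower were named after their values were seen, as they fall outside the naming rule. The gene rgs13, a regulator of G protein signalling, was at 6.22, 3.67, 3.83 and 2.72 FPKM in MYC 1 to 4 and 0.334, 0.624, 0.845 and 0.326 FPKM in MYC 5 to 8 (log2 difference -1.71 ± 0.26 SE, limma adjusted p = 0.0396). Its call ended without any 1 library other than MYC 7 (0.0623 to 0.14). The unnamed gene zgc:153118 was at 62.9, 13.1, 10.4 and 32.9 FPKM in MYC 1 to 4, at no more than 0.0341 FPKM in MYC 5 to 8 and listed at 0 in all of MYCN. Its fitted difference was -4.58 ± 0.48 (SE, limma adjusted p = 0.00694). Both rgs13 and zgc:153118 passed the filter only through MYC 1 to 4, so both had to differ.

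Of the 6 genes called higher in MYC 5 to 8, ivns1abpb had the highest level. It encodes a kelch-repeat protein that binds actin, and stood at 31.5, 30.2, 21.4 and 29.5 FPKM in MYC 1 to 4 and 81.7, 79.7, 65.4 and 91.8 FPKM in MYC 5 to 8 (log2 difference 1.47 ± 0.23 SE, limma adjusted p = 0.0396). The orphan nuclear receptor gene rorab, a zebrafish counterpart of the human gene for ROR alpha, was at 3.85, 2.74, 2.18 and 2.8 FPKM in MYC 1 to 4 and 17.3, 11.6, 8.23 and 12.7 FPKM in MYC 5 to 8 (log2 difference 1.76 ± 0.28 SE, limma adjusted p = 0.0407). The gene tmx2b encodes a thioredoxin-related membrane protein and was at 2.07, 2.03, 1.38 and 3.33 FPKM in MYC 1 to 4 and 9.25, 16.5, 8.26 and 13.7 FPKM in MYC 5 to 8 (log2 difference 2.00 ± 0.30 SE, limma adjusted p = 0.0375). None of these overlapped between the sets. The calls of ivns1abpb and rorab ended without any 1 library other than MYC 7 (0.0619 to 0.14 and 0.0623 to 0.14). That of tmx2b ended without any 1 library other than MYC 5 and MYC 7 (0.0619 to 0.139).

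The remaining genes called higher were eye genes by name or had no assigned role. The lens crystallin gene crygn2 stood at 0.707, 0.451, 0.376 and 0.433 FPKM in MYC 1 to 4 and 13.7, 8.33, 5.31 and 5.96 FPKM in MYC 5 to 8 (log2 difference 2.57 ± 0.29 SE, limma adjusted p = 0.00694). The guanylate cyclase gene gc3, a photoreceptor enzyme, stood at 0.554, 0.0168, 0.0456 and 0.0118 FPKM in MYC 1 to 4 and 4.49, 3.6, 7.02 and 4.37 FPKM in MYC 5 to 8 (log2 difference 2.34 ± 0.26 SE, limma adjusted p = 0.00694). Both were below 1 FPKM in each library of MYC 1 to 4. In MYCN they ran from 0.373 to 6.72 and from 0.663 to 5.35 FPKM. The gene si:ch211-253h3.1 was at 8.54, 7.61, 13.2 and 7.66 FPKM in MYC 1 to 4 and 24.5, 40.99, 32.2 and 41.8 FPKM in MYC 5 to 8 (log2 difference 1.81 ± 0.27 SE, limma adjusted p = 0.0375), and its call ended without MYC 1, MYC 2, MYC 4, MYC 6 or MYC 8 (0.0665 to 0.14). As both gc3 and crygn2 reached 1 FPKM only in MYC 5 to 8, they had to differ, and their calls are no sign of stability. Both gc3 and si:ch211-253h3.1 fall outside the naming rule and were chosen after their values were seen.

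No immediate early gene passed the test on its own, and their differences were mostly below 0. In 19 of the 34 tested genes of the list AP-1 and immediate early, all of MYC 5 to 8 lay below all of MYC 1 to 4, and in none above, beside 3.0% and 2.29% of all genes tested. The list's median log2 difference was -1.39, beside 0.09 for all genes, and the difference was below 0 in 32 of the 34. At an unadjusted p under 0.05, 27 were lower (5.15% of all genes) and none higher (3.03%). Without MYC 3 and MYC 7 the count without overlap was again 19 of 34, beside 5.25% of all genes for 3 against 3, and the median was -1.19. Over the other settings the median ran from -1.69 to -1.04, and 5 genes were called lower with library weights or a common sum.

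The FOS gene fos stood at 805, 946, 1768 and 1069 FPKM in MYC 1 to 4 and 420.3, 393, 144 and 137 FPKM in MYC 5 to 8. Each library of MYC 1 to 4 was above every library of MYC 5 to 8, and MYC 7 and MYC 8 were the lowest (log2 difference -2.19 ± 0.43 SE, limma adjusted p = 0.0807). Its partner junbb stood at 1259, 1804, 4800.0 and 2522 FPKM in MYC 1 to 4 and 787, 756, 545 and 456 FPKM in MYC 5 to 8 (log2 difference -1.88 ± 0.41 SE, limma adjusted p = 0.0946). The JUN gene itself, jun, differed less, at 514, 601, 853 and 488 FPKM in MYC 1 to 4 and 264, 389.7, 329.7 and 331 FPKM in MYC 5 to 8 (log2 difference -0.88 ± 0.26 SE, limma adjusted p = 0.253). Both JUN family genes were without overlap and neither passed.

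The zinc finger genes of the EGR family went the same way. The first, egr1, a factor induced by growth signals and by nerve activity, stood at 185, 159.7, 679 and 345 FPKM in MYC 1 to 4 and 112, 85.4, 52.7 and 19.8 FPKM in MYC 5 to 8 (log2 difference -2.34 ± 0.57 SE, limma adjusted p = 0.137). Its relative egr2a was at 5.1, 6.58, 11.2 and 5.21 FPKM in MYC 1 to 4 and 1.12, 2.1, 0.16 and 0.211 FPKM in MYC 5 to 8 (log2 difference -2.14 ± 0.37 SE, limma adjusted p = 0.0505). For egr3 the levels were 3.55, 4.3, 19.6 and 4.81 FPKM in MYC 1 to 4 and 1.03, 0.828, 0.371 and 0.486 FPKM in MYC 5 to 8 (log2 difference -2.14 ± 0.44 SE, limma adjusted p = 0.084), where MYC 3 was far above the rest of its set.

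The largest difference in the list was in nr4a1, an orphan nuclear receptor induced by stimuli of many kinds. It stood at 25.3, 137, 211 and 143 FPKM in MYC 1 to 4 and 12.6, 19.2, 4.34 and 3.65 FPKM in MYC 5 to 8 (log2 difference -3.49 ± 0.67 SE, limma adjusted p = 0.0706). MYC 1 was the lowest of its own set and still above all of MYC 5 to 8. The antiproliferative gene btg2 stood at 321, 443, 335 and 451 FPKM in MYC 1 to 4 and 216, 164, 56.1 and 76.5 FPKM in MYC 5 to 8 (log2 difference -1.78 ± 0.41 SE, limma adjusted p = 0.114). The genes jun, junbb and egr1 were named after their values were seen.

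The extremes fell in few libraries. MYC 3 was the highest of the 8 libraries for 16 of the 34 genes, and MYC 7 and MYC 8 were the lowest for 15 and 12. Summed over the 41 measured genes, the level was 5532, 7074, 13478 and 8811 FPKM in MYC 1 to 4 and 3757, 3211, 2031 and 1882 FPKM in MYC 5 to 8. The MYCN sums were 2311, 7758, 4055 and 8975 FPKM, so MYCN 2 and MYCN 4 lay within the range of MYC 1 to 4 and MYCN 1 within that of MYC 5 to 8. The list shares dusp1, myca, mcl1a, mcl1b, btg2, nr4a1 and atf3 with lists described further on.

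**Figure D3:**
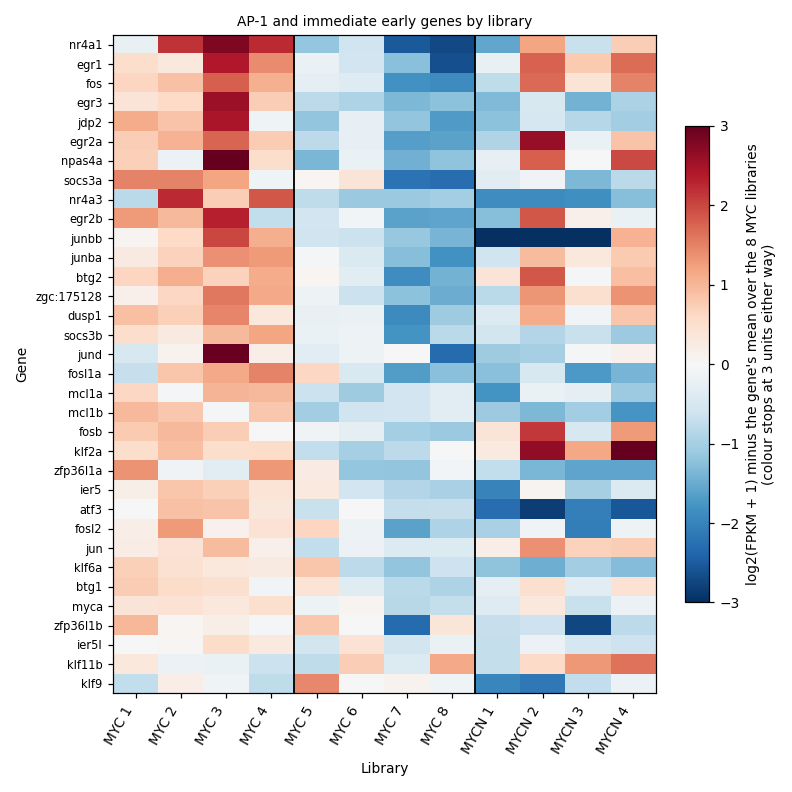
Heat map of the 34 tested immediate early genes in the 8 MYC and 4 MYCN libraries, as log2(FPKM + 1) minus the mean of each gene over the MYC libraries. Most rows are red in MYC 1 to 4 and blue in MYC 5 to 8, with MYC 3 highest in 16 rows, and MYCN 2 and MYCN 4 are redder than MYCN 1 and MYCN 3 for most genes.

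Feedback inhibitors that signalling pathways switch on to limit themselves were measured in 1 list. Of the 19 tested genes of the FGF and MAPK feedback list none passed, and 3 lay lower in MYC 5 to 8 without overlap (3.0% of all genes), with none higher and a list median of -0.15. The median was -0.27 without MYC 3, -0.25 without MYC 5 and -0.10 without MYC 7. All 3 were dual specificity phosphatases, which switch off MAP kinases. The gene with the smallest p, dusp2, was at 43.8, 34.1, 122 and 89.8 FPKM in MYC 1 to 4 and 12.1, 22.4, 1.95 and 4.92 FPKM in MYC 5 to 8 (log2 difference -2.92 ± 0.62 SE, limma adjusted p = 0.0867). The next, dusp1, was at 101, 87.9, 148 and 66.2 FPKM in MYC 1 to 4 and 45.7, 46.4, 13.6 and 24.96 FPKM in MYC 5 to 8 (log2 difference -1.69 ± 0.40 SE, limma adjusted p = 0.124). The last, dusp5, was at 10.3, 20.2, 24.2 and 72.4 FPKM in MYC 1 to 4 and 9.16, 8.55, 2.53 and 4.997 FPKM in MYC 5 to 8 (log2 difference -1.94 ± 0.54 SE, limma adjusted p = 0.204), and the fourth gene by p, dusp4, overlapped (log2 difference -1.58 ± 0.69 SE, limma adjusted p = 0.596).

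The inhibitors of NF-kB, which that factor induces to end its own signal, were in no list and were named after their values were seen. The gene nfkbiaa was at 31.5, 18.8, 20.4 and 14.2 FPKM in MYC 1 to 4 and 6.13, 6.87, 5.9 and 6.76 FPKM in MYC 5 to 8 (log2 difference -1.53 ± 0.27 SE, limma adjusted p = 0.0505). Its paralogue nfkbiab was at 282, 439.5, 425 and 150.1 FPKM in MYC 1 to 4 and 84.3, 56.99, 98.4 and 96.7 FPKM in MYC 5 to 8 (log2 difference -1.85 ± 0.36 SE, limma adjusted p = 0.0759). Neither overlapped between the sets and neither passed. In the heat shock and ER stress list, 3 of 52 genes were higher (2.29% of all genes) and 2 lower (3.0% of all genes) without overlap, and none passed. The median was 0.03, and ran from -0.06 without MYC 5 to 0.20 without MYC 7. Its first gene by p, ppp1r15a, also called GADD34, which restarts translation after stress, was at 71.6, 169.7, 213 and 79.02 FPKM in MYC 1 to 4 and 33.5, 46.3, 25.2 and 15.7 FPKM in MYC 5 to 8 (log2 difference -2.05 ± 0.42 SE, limma adjusted p = 0.084). The stress factor atf3 and the chaperone gene dnajb1b were lower in mean and overlapped with log2 differences of -1.03 ± 0.29 (SE, limma adjusted p = 0.219) and -1.17 ± 0.36 (SE, limma adjusted p = 0.27). The ER chaperone gene hyou1 was at 21.8, 28.8, 28.1 and 31.2 FPKM in MYC 1 to 4 and 52.1, 44.2, 40.2 and 49.7 FPKM in MYC 5 to 8 (log2 difference 0.74 ± 0.22 SE, limma adjusted p = 0.231), the higher set being MYC 5 to 8.

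Few markers of macrophages or of leukocytes in general passed the test. Over all 8 libraries most overlapped between the sets, though more lay lower without overlap than among all genes. In bulk libraries fewer cells of a type and less RNA per cell cannot be told apart. Of 31 tested macrophage markers 1 was called lower (cd74b, beside 0.109% of all genes), none higher and 30 did not pass. In 12 all of MYC 5 to 8 lay below all of MYC 1 to 4 (3.0% of all genes) and in none above (2.29% of all genes), while 19 overlapped. The median log2 difference was -0.89, and 22 were lower at an unadjusted p under 0.05 (5.15% of all genes). Without MYC 3 and MYC 7, 21 of 31 did not overlap, beside 5.25% of all genes. Summed over the 39 measured markers, the level was 871 to 2368 FPKM in MYC 1 to 4, 467 to 600.0 FPKM in MYC 5 to 8 and 164 to 1011 FPKM in MYCN, and no marker was at 0 in all 8 MYC libraries. MYC 1 was the highest of the 8 libraries for 17 markers and MYC 4 for 10.

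Among the macrophage markers the complement gene c1qb stood at 145, 67.8, 71.9 and 133 FPKM in MYC 1 to 4 and 38.5, 27.99, 44.9 and 42.5 FPKM in MYC 5 to 8. The progranulin gene grn1 was at 179, 55.7, 61.02 and 101 FPKM in MYC 1 to 4 and 19.9, 25.8, 14.3 and 25.4 FPKM in MYC 5 to 8 (log2 difference -2.04 ± 0.38 SE, limma adjusted p = 0.0627). A gene for a galectin-3-binding protein, lgals3bpb, was at 65.3, 33.2, 64.5 and 77.9 FPKM in MYC 1 to 4 and 9.2, 5.77, 26.6 and 10.3 FPKM in MYC 5 to 8 (log2 difference -2.27 ± 0.43 SE, limma adjusted p = 0.0679). These 3 did not overlap and did not pass. The perforin-like gene mpeg1, a marker widely used to label fish macrophages, overlapped between the sets at 12.3, 2.65, 2.08 and 10.01 FPKM in MYC 1 to 4 and 3.07, 1.56, 3.83 and 4.49 FPKM in MYC 5 to 8. The macrophage sums were 2368, 871, 1596 and 1814 FPKM in MYC 1 to 4 and 502, 467, 600.0 and 508 FPKM in MYC 5 to 8. Beside them the immediate early sums were 5532, 7074, 13478 and 8811 FPKM and 3757, 3211, 2031 and 1882 FPKM. How the sums of these lists relate was not tested.

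The pan-leukocyte list had no call among 22 tested genes, 8 lower without overlap (3.0% of all genes), none higher (2.29% of all genes), 14 with overlap, and a median of -0.96. The Arp2/3 subunit gene arpc1b, of the actin machinery of blood cells, stood at 84.5, 64.4, 58.3 and 100.4 FPKM in MYC 1 to 4 and 23.4, 23.8, 28.04 and 31.1 FPKM in MYC 5 to 8 (log2 difference -1.47 ± 0.24 SE, limma adjusted p = 0.0505). The shared cytokine receptor chain gene il2rga was at 11.4, 6.42, 6.33 and 6.43 FPKM in MYC 1 to 4 and 1.8, 2.8, 3.06 and 1.33 FPKM in MYC 5 to 8 (log2 difference -1.41 ± 0.29 SE, limma adjusted p = 0.084). Further actin regulators of leukocytes followed, with coro1a at 56.7, 39.8, 49.7 and 55.3 FPKM in MYC 1 to 4 and 16.6, 20.3, 30.7 and 21.4 FPKM in MYC 5 to 8 (log2 difference -1.16 ± 0.25 SE, limma adjusted p = 0.0931) and wasb at 10.98, 8.95, 10.7 and 8.65 FPKM in MYC 1 to 4 and 5.17, 3.76, 5.33 and 4.18 FPKM in MYC 5 to 8 (log2 difference -0.95 ± 0.23 SE, limma adjusted p = 0.128). All 4 were without overlap. The sum over the 26 measured markers was 353 to 622 FPKM in MYC 1 to 4 and 192 to 351 FPKM in MYC 5 to 8.

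T and NK lymphocyte markers were low in level. Of 12 tested T and NK markers none passed, 6 lay lower without overlap (3.0% of all genes) and none higher (2.29% of all genes), 6 overlapped, and the median was -1.15. Of the 12, 3 reached 1 FPKM in all of MYC 1 to 4 and in none of MYC 5 to 8, cd4 among them. These 3 had to lie lower without overlap and are part of the 6, so that count is not like the share of all genes. The median without them was -0.97. Without MYC 3 and MYC 7, 7 of 12 lay lower without overlap, beside 5.25% of all genes, and those 3 are again part of the count. The chemokine receptor gene ccr9a stood at 18.9, 7.65, 8.98 and 9.7 FPKM in MYC 1 to 4 and 2.3, 3.16, 2.43 and 2.07 FPKM in MYC 5 to 8 (log2 difference -1.75 ± 0.30 SE, limma adjusted p = 0.0505). The adaptor gene sla2, which dampens T cell receptor signals, was at 15.3, 10.8, 15.7 and 8.09 FPKM in MYC 1 to 4 and 2.78, 2.7, 2.01 and 5.28 FPKM in MYC 5 to 8 (log2 difference -1.69 ± 0.31 SE, limma adjusted p = 0.0627). The coreceptor gene cd4 was at 3.71, 2.29, 1.42 and 2.65 FPKM in MYC 1 to 4 and 0.826, 0.523, 0.217 and 0.22 FPKM in MYC 5 to 8 (log2 difference -1.26 ± 0.27 SE, limma adjusted p = 0.0867), and eomesa, a factor of cytotoxic lymphocytes, at 2.4, 2.76, 2.1 and 2.69 FPKM in MYC 1 to 4 and 0.759, 1.07, 0.398 and 1.04 FPKM in MYC 5 to 8 (log2 difference -0.95 ± 0.23 SE, limma adjusted p = 0.121). Summed over 23 measured markers the level was 49.6 to 113 FPKM in MYC 1 to 4 and 17.9 to 28.9 FPKM in MYC 5 to 8.

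Neutrophil genes went in both directions. Of 10 tested, none passed, 2 were higher (2.29% of all genes) and 2 lower (3.0% of all genes) without overlap, and the neutrophil median was 0.31. Without MYC 3 it was 0.16 and without MYC 6 it was also 0.16. The lysozyme gene lyz stood at 69.9, 45.9, 15.9 and 60.1 FPKM in MYC 1 to 4 and 111, 185, 148 and 98.3 FPKM in MYC 5 to 8 (log2 difference 1.62 ± 0.43 SE, limma adjusted p = 0.171), and lect2l, a secreted chemotactic protein gene of neutrophils, at 39.01, 29.1, 18.03 and 41.9 FPKM in MYC 1 to 4 and 69.4, 72.4, 65.00 and 54.1 FPKM in MYC 5 to 8 (log2 difference 1.06 ± 0.29 SE, limma adjusted p = 0.18). In both, every library of MYC 5 to 8 was above every library of MYC 1 to 4. The myeloid factor genes cebpb, 78.2, 56.3, 68.2 and 107 FPKM in MYC 1 to 4 and 27.7, 25.05, 30.2 and 20.4 FPKM in MYC 5 to 8 (log2 difference -1.52 ± 0.26 SE, limma adjusted p = 0.0505), and cebpa, 11.6, 6.26, 6.36 and 8.43 FPKM in MYC 1 to 4 and 3.35, 3.15, 1.97 and 3.58 FPKM in MYC 5 to 8 (log2 difference -1.17 ± 0.27 SE, limma adjusted p = 0.115), went the other way. The difference between the neutrophil and the macrophage list was not tested.

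**Figure D4:**
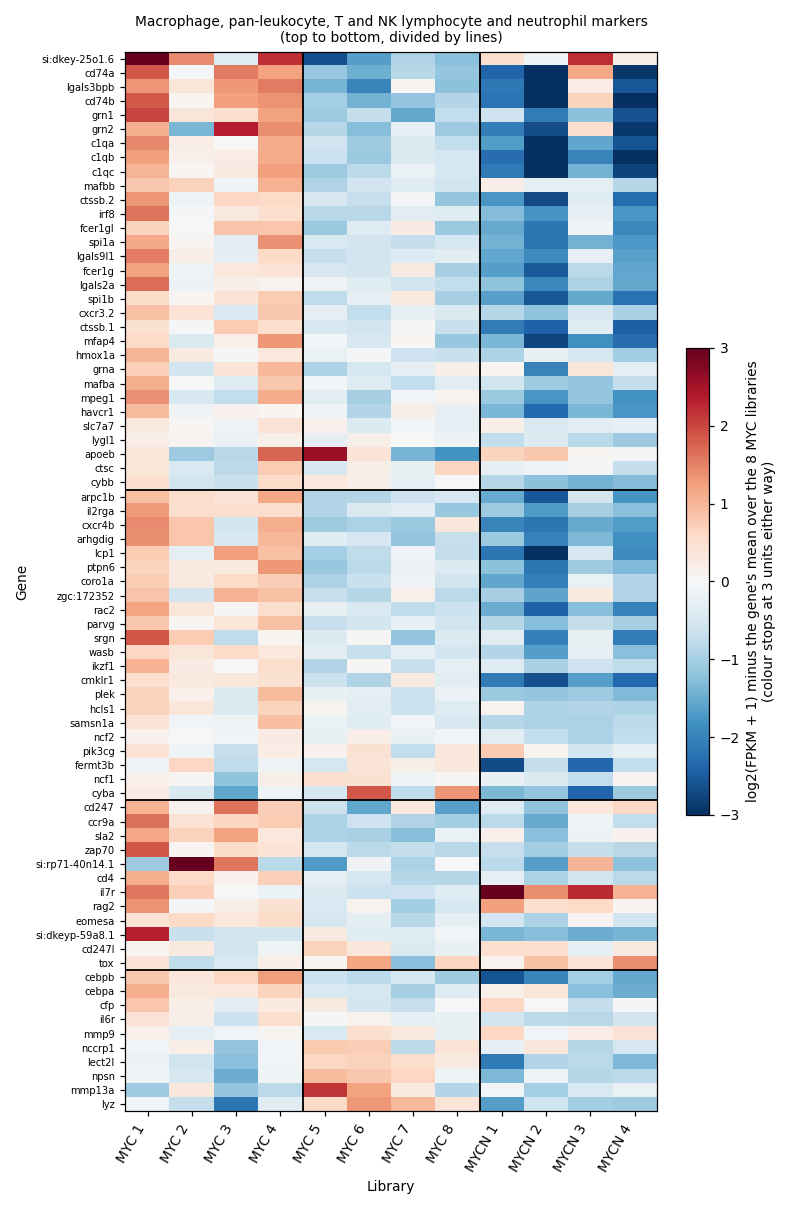
Heat map of tested macrophage, pan-leukocyte, T and NK lymphocyte and neutrophil markers (blocks from top to bottom) in each library, as log2(FPKM + 1) minus the mean of each gene over the 8 MYC libraries. The first 3 blocks are mostly blue in MYC 5 to 8, and lyz and lect2l at the foot are red there. For cd74a and cd74b MYCN 3 is red and the other MYCN libraries are blue.

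No gene of mitosis separated the sets. Of 46 tested none passed, none was without overlap, also not without MYC 3 and MYC 7, 9 were lower at an unadjusted p under 0.05 (5.15% of all genes), and the median was -0.70. The cyclin gene ccnb1, which drives entry into mitosis, stood at 15.17, 4.02, 5.64 and 2.43 FPKM in MYC 1 to 4 and 0.629, 1.56, 1.15 and 4.33 FPKM in MYC 5 to 8 (log2 difference -1.32 ± 0.50 SE, limma adjusted p = 0.451). The activator of the anaphase-promoting complex, cdc20, was at 10.6, 5.12, 3.47 and 2.8 FPKM in MYC 1 to 4 and 0.37, 1.38, 0.623 and 4.82 FPKM in MYC 5 to 8 (log2 difference -1.32 ± 0.49 SE, limma adjusted p = 0.425). In both genes MYC 8 lay within the range of MYC 1 to 4 and the other libraries of its set below it. MYC 1 was the highest library for 38 of the 46, and without it the median was -0.43. Without MYC 8 the median was -0.95. In 23 of the 46 genes MYC 5, MYC 6 and MYC 7 lay below all of MYC 1 to 4, beside 4.35% of all genes.

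The spindle genes dlgap5 (log2 difference -0.88 ± 0.33 SE, limma adjusted p = 0.446) and tacc3 (log2 difference -1.25 ± 0.48 SE, limma adjusted p = 0.468) had the same order. The proliferation markers mki67 and top2a overlapped, with 1.07 to 2.54 against 0.322 to 2.24 FPKM and 1.45 to 8.15 against 0.52 to 3.4 FPKM. The 52 tested genes of DNA replication had a median of -0.09 with no call, no gene without overlap and none at an unadjusted p under 0.05. The difference between these lists was not tested.

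Of the 43 tested p53 target and apoptosis genes, pmaip1 was called lower (beside 0.109% of all genes), none higher and 42 did not pass. Without overlap 7 were lower, beside 3.0% of all genes, and 1 higher, beside 2.29% of all genes. Of the 43, 1 reached 1 FPKM in every library of 1 set and in none of the other, so it had to separate. The median was 0.13, but -0.06 without MYC 3, 0.06 without MYC 6 or MYC 8 and 0.21 without MYC 2. Without both MYC 3 and MYC 7 it changed sign as well. Among the 7 genes lower without overlap were both genes for MCL1, the survival protein that NOXA binds. The level of mcl1a was 149, 95.3, 198 and 193 FPKM in MYC 1 to 4 and 62.1, 45.4, 65.1 and 78.03 FPKM in MYC 5 to 8 (log2 difference -1.29 ± 0.29 SE, limma adjusted p = 0.107), and that of mcl1b 22.9, 20.3, 10.9 and 20.5 FPKM in MYC 1 to 4 and 4.95, 7.08, 7.23 and 8.8 FPKM in MYC 5 to 8 (log2 difference -1.27 ± 0.29 SE, limma adjusted p = 0.114).

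Sympathoadrenal transcription factors overlapped for the most part. Of 28 tested none passed, 3 were lower without overlap (nr4a1, tlx2 and lmo1, beside 3.0% of all genes), and the median of the sympathoadrenal transcription factors was -0.41. It was -0.11 without MYC 7, -0.61 without MYC 5 and -0.16 without MYC 3 and MYC 7. The homeobox gene tlx2 stood at 44.8, 52.1, 33.1 and 33.8 FPKM in MYC 1 to 4 and 24.4, 13.9, 8.27 and 16.3 FPKM in MYC 5 to 8 (log2 difference -1.39 ± 0.32 SE, limma adjusted p = 0.115). The LIM-only gene lmo1, a known neuroblastoma susceptibility gene in humans, was at 102, 102, 61.02 and 48.3 FPKM in MYC 1 to 4 and 45.99, 24.3, 18.6 and 18.1 FPKM in MYC 5 to 8 (log2 difference -1.55 ± 0.36 SE, limma adjusted p = 0.115), below all 4 MYCN libraries at 151 to 359.9 FPKM. Its relative lmo3 overlapped between the sets (log2 difference -1.16 ± 0.38 SE, limma adjusted p = 0.321). The core noradrenergic factors overlapped too, with phox2bb at 4.09 to 8.97 and 1.996 to 27.8 FPKM, gata3 at 129 to 224 and 101 to 226 FPKM and isl1 at 2.89 to 7.75 and 0.73 to 14.5 FPKM. The proneural gene ascl1a did not enter the test, at 0.272, 7.55, 6.35 and 2.86 FPKM in MYC 1 to 4 and 0.646, 0.185, 0.126 and 0.201 FPKM in MYC 5 to 8. The 15 catecholamine genes had no call, none without overlap and a median of -0.06.

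In the retinoid pathway rbp1a was the 1 called gene of 18 tested (0.109% of all genes were called lower), with 17 not passing. As rbp1a entered the test only through the set where it was high, the call says nothing of the list. The retinoid pathway median was -0.25, but -0.16 without MYC 1 or MYC 5, -0.15 without MYC 8 and -0.13 without MYC 7. The retinoic acid carrier crabp1b was at 9.51, 5.7, 21.5 and 18.2 FPKM in MYC 1 to 4 and 5.27, 0.417, 0.534 and 1.16 FPKM in MYC 5 to 8 (log2 difference -2.50 ± 0.52 SE, limma adjusted p = 0.084). It did not overlap and did not pass, and MYC 5 was far above the rest of its set. The MYCN libraries held 21.8 to 39.5 FPKM of it. The retinol dehydrogenase family genes dhrs3a (log2 difference 1.16 ± 0.50 SE, limma adjusted p = 0.589) and rdh12 (log2 difference 0.52 ± 0.27 SE, limma adjusted p = 0.735), overlapped.

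The endogenous MYC family had no call among 12 genes, and a median of -0.03. The gene mycb, a fish copy of MYC, stood at 5.04, 6.48, 14.6 and 1.86 FPKM in MYC 1 to 4 and 0.717, 1.41, 0.901 and 0.553 FPKM in MYC 5 to 8 (log2 difference -1.84 ± 0.44 SE, limma adjusted p = 0.128), without overlap. Its other copy myca was at 3.1, 3.19, 2.87 and 3.35 FPKM in MYC 1 to 4 and 1.79, 2.29, 0.757 and 0.886 FPKM in MYC 5 to 8 (log2 difference -0.81 ± 0.26 SE, limma adjusted p = 0.307), also without overlap. The genes mycla (log2 difference -0.75 ± 0.30 SE, limma adjusted p = 0.503) and mych (log2 difference 0.71 ± 0.45 SE, limma adjusted p = 0.853) overlapped, and mycn stayed at 0.0759 to 0.438 and 0.205 to 0.703 FPKM. Whether reads of the transgenes were counted with any of these genes is not stated in the labels, and the transgenes were not analysed here.

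Receptors and growth factor signals held single genes of note by rank. The median of the 22 BMP, TGF-beta and Id genes was -0.07, and 0.01 without MYC 3 and MYC 7. None passed, and 2 were lower without overlap (3.0% of all genes). These were the BMP receptor gene bmpr1ba at 11.5, 11.9, 7.71 and 4.08 FPKM in MYC 1 to 4 and 3.48, 1.4, 1.31 and 1.23 FPKM in MYC 5 to 8 (log2 difference -1.75 ± 0.36 SE, limma adjusted p = 0.084) and id3, an inhibitor of basic helix-loop-helix factors, at 16.3, 5.74, 4.26 and 5.85 FPKM in MYC 1 to 4 and 2.73, 1.88, 0.701 and 1.78 FPKM in MYC 5 to 8 (log2 difference -1.59 ± 0.39 SE, limma adjusted p = 0.139). The receptor genes acvr2aa (log2 difference 1.02 ± 0.36 SE, limma adjusted p = 0.392) and tgfbr1b (log2 difference -0.78 ± 0.38 SE, limma adjusted p = 0.679) overlapped. Of 12 growth factor receptor genes none passed. The GDNF receptor gene gfra1a, at 2.36, 1.23, 0.202 and 0.108 FPKM in MYC 1 to 4 and 3.08, 6.43, 9.07 and 10.4 FPKM in MYC 5 to 8 (log2 difference 2.11 ± 0.43 SE, limma adjusted p = 0.084), was higher without overlap. The hepatocyte growth factor receptor gene met, at 6.93, 5.1, 7.59 and 1.89 FPKM in MYC 1 to 4 and 1.51, 0.374, 1.16 and 1.01 FPKM in MYC 5 to 8 (log2 difference -1.58 ± 0.37 SE, limma adjusted p = 0.115), was lower without overlap. The insulin and IGF receptor genes insrb (log2 difference 0.52 ± 0.23 SE, limma adjusted p = 0.625) and igf1ra (log2 difference 0.66 ± 0.32 SE, limma adjusted p = 0.674) overlapped.

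Of the metabolic lists, glycolysis had a median of 0.03 over 33 tested genes, below the 0.09 of all genes, with no call. The 80 tested respiratory chain genes had no call and a respiratory chain median of 0.25 (0.15 without MYC 4, 0.17 without MYC 6), with 72 above 0 beside 62.6% of all genes. The succinate dehydrogenase gene sdhda was at 3.08, 2.91, 0.306 and 1.26 FPKM in MYC 1 to 4 and 18.02, 14.9, 6.39 and 17.6 FPKM in MYC 5 to 8 (log2 difference 2.44 ± 0.43 SE, limma adjusted p = 0.0505). It was the 1 gene of the 80 without overlap, beside 2.29% of all genes higher without overlap, and had 6 calls among 20 alternatives. The complex I genes ndufb7 (log2 difference 0.58 ± 0.29 SE, limma adjusted p = 0.702), ndufs6 (log2 difference 0.56 ± 0.30 SE, limma adjusted p = 0.738) and ndufb5 (log2 difference 0.56 ± 0.31 SE, limma adjusted p = 0.799) overlapped. In the nucleotide, polyamine and one-carbon list of 47 genes, none passed, 3 were higher (2.29% of all genes) without overlap and none lower (3.0% of all genes). The median was 0.16, and ran from 0.04 without MYC 4 to 0.26 without MYC 7. The serine synthesis gene phgdh was at 0.969, 0.26, 0.558 and 1.04 FPKM in MYC 1 to 4 and 3.29, 1.92, 5.99 and 5.08 FPKM in MYC 5 to 8 (log2 difference 1.52 ± 0.32 SE, limma adjusted p = 0.084), and the mitochondrial folate gene mthfd1l at 0.546, 0.532, 0.546 and 1.6 FPKM in MYC 1 to 4 and 2.25, 2.01, 3.52 and 2.9 FPKM in MYC 5 to 8 (log2 difference 1.05 ± 0.26 SE, limma adjusted p = 0.147). The purine synthesis gene gart (log2 difference -0.99 ± 0.31 SE, limma adjusted p = 0.289) and the serine synthesis gene psat1 (log2 difference 0.60 ± 0.29 SE, limma adjusted p = 0.679) overlapped.

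Lists of the growth machinery had medians of 0.01 to 0.23, beside 0.09 for all genes, of which 62.6% were above 0. The 81 cytosolic ribosomal protein genes had a median of 0.01, which ran from -0.34 to 0.27 over the alternatives, with 41 above 0. The 88 ribosome biogenesis genes had a median of 0.16 (73 above 0) and the 81 translation factor and tRNA synthetase genes 0.23 (64 above 0). For the 64 mitochondrial ribosomal protein genes it was 0.20 (55 above 0) and for the 90 splicing genes 0.05 (55 above 0). None of these lists held a call, and 1 gene among them did not overlap, a share below the 5.29% of all genes. It was mrpl16 of the mitochondrial ribosome, which was lower in MYC 5 to 8 and was named after its values were seen. In all, 4 of the 54 lists held a call. These were interferon and antigen presentation, macrophage, p53 targets and apoptosis, and the retinoid pathway. The macrophage call, cd74b, is also 1 of the calls of interferon and antigen presentation. The retinoid call is rbp1a alone and so drawn from a gene that had to differ.

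**Figure D5:**
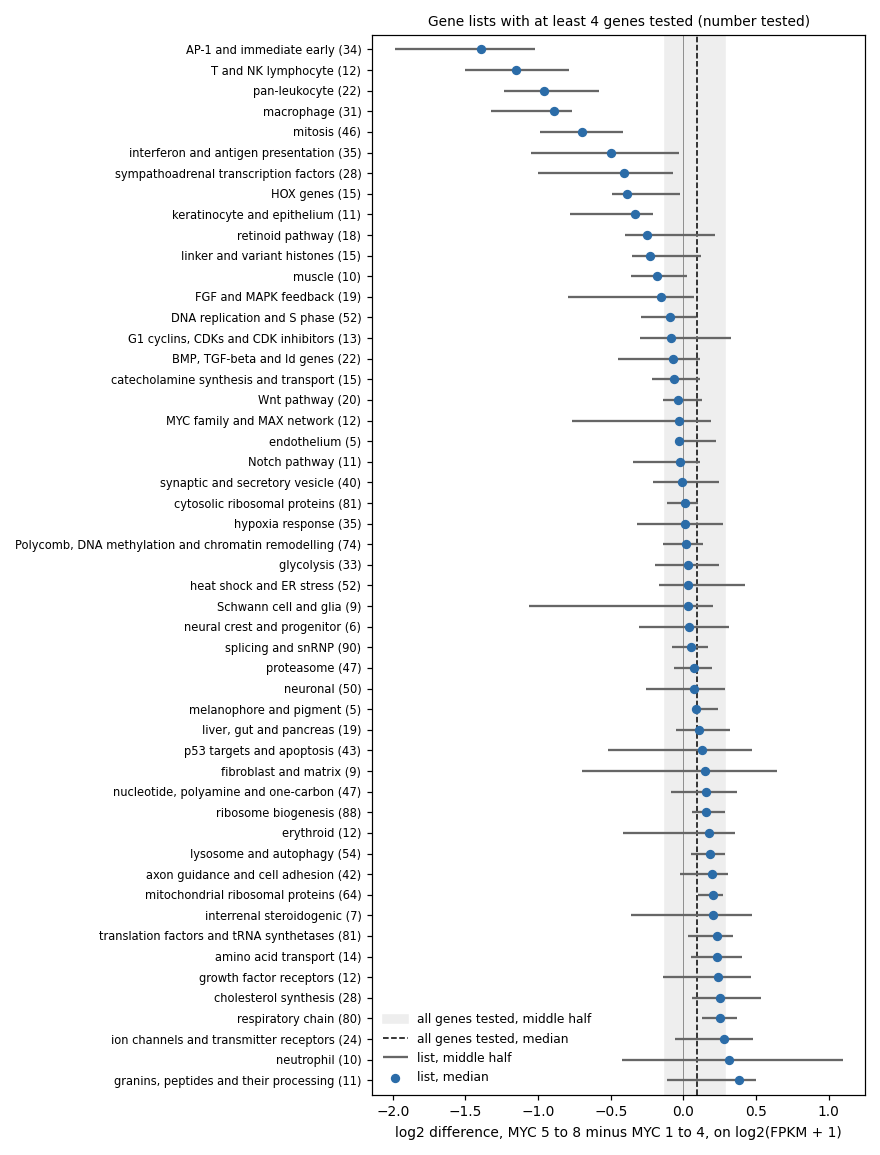
Median (point) and interquartile range (line) of the log2 difference, MYC 5 to 8 minus MYC 1 to 4, for lists with at least 4 genes tested, with the median of all genes at 0.09 (dashed) and their interquartile range shaded. Immediate early, T and NK, pan-leukocyte, macrophage and mitosis lists have medians of -1.39, -1.15, -0.96, -0.89 and -0.70, and most others lie within the shaded band.

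Of the genes at 0 in all 4 libraries of 1 set, 11 reached 1 FPKM in all 4 of the other and were left out of the test. Among them were abundant genes that every cell uses. The ribosomal protein gene rps2 was listed at 0 in MYC 1 to 4 and in MYCN, and at 12883, 13452, 11318 and 6951 FPKM in MYC 5 to 8. The reverse held for rplp1, of the ribosomal stalk, at 25520.2, 23476, 24949.8 and 10628 FPKM in MYC 1 to 4 and listed at 0 elsewhere. The spliceosome gene snrpd1 was at 193, 259.7, 123 and 99.6 FPKM in MYC 1 to 4 and listed at 0 elsewhere. Of the rest, clptm1l, ggcta, btd, twistnb, ptk2aa, znrf2a and LOC792465 had the pattern of rplp1. The gene zgc:153426 was listed at 0 in MYC 1 to 4, at 10.7, 8.73, 7.93 and 8.71 FPKM in MYC 5 to 8 and at 48.6 to 93.8 FPKM in MYCN. Such zeros can be failed estimates, and no fold is given for them.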

How the data were processed

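RNA of EGFP-positive tumour cells was measured by ribosomal RNA-depleted sequencing in 12 libraries, 8 labelled MYC and 4 MYCN. The authors deposited 1 table of FPKM values for 14581 genes, and the submitters' processing notes name cutadapt, TopHat2 2.0.11 and Cufflinks 2.2.1. The genome build is not given in the sources used here, and the FPKM values give no read depth, so no counting intervals could be set. Date-like gene names (10) were matched to no symbol.

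A gene was kept when 4 or more of the 8 MYC libraries held 1 FPKM or above, those at 0 in all 4 libraries of 1 set were left out, and log2(FPKM + 1) was compared with limma 3.58.1 (trended variance, no covariates, R 4.3.3). P-values were adjusted over all 9212 genes by the Benjamini-Hochberg method, with 0.05 as threshold. Fold changes on this scale understate the change of low genes. P-values measure only the spread between these libraries, which may be technical. Library totals were compared by a two-sided exact permutation test (scipy 1.17.1). The fit was tested on simulated data.

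The 54 gene lists hold 2712 symbols, of which 2225 matched the table, 175 of them under another name in RefSeq. The sets, members and lists were chosen with earlier results of these data known. The genes named were the called genes of largest change with an assigned symbol and a mean of 5 FPKM or more in their higher set. Named too were up to 4 genes of smallest p in each of 17 lists, and markers for level checks. Others are said to be named after their values were seen. Alternatives changed the pseudocount (0.1 or 5), the filter, the scaling, library weights, the libraries in the fit, the variance trend, and each library in turn.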

Additional observations from a re-analysis of the deposited data

Results flagged for a closer look

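In 20 of the 194 sets of 4 values checked (10.3%), 1 library stood far from the other 3 of its set. The cutoff would flag about 1 in 20 sets if values were normally distributed. FPKM need not be, so the share is not compared with chance. Of the 20, all but 1 were high values. In MYC 1 these were 11.4 FPKM of il2rga, 10.7 FPKM of tacc3, 16.3 FPKM of id3, 224 FPKM of gata3 and 0.554 FPKM of gc3. In MYC 2 it was 1.40 FPKM of dhrs3a, and in MYC 4 it was 1.60 FPKM of mthfd1l. MYC 3 held 19.6 FPKM of egr3, 21.3 FPKM of tgfbr1b and 13.2 FPKM of si:ch211-253h3.1.

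In the other set MYC 5 stood apart most often, with 3.27 FPKM of mhc1ze where the other 3 libraries list it at 0, 5.27 FPKM of crabp1b, 4.47 FPKM of dusp4 and 3.48 FPKM of bmpr1ba. It also held 0.646 FPKM of ascl1a and 0.108 FPKM of col1a1a, both low levels. MYC 6 was high in atf3 at 10.1 FPKM and in ndufs6 at 439 FPKM, and low in gart at 38.3 FPKM. MYC 8 was high in dlgap5 at 2.11 FPKM.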

How the results depend on the processing

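Against 16 genes called, the count was 9 with no filter on low values, 58 with median-ratio scaling, 52 with quantile normalisation, 59 with rescaling to a common sum, 126 with library weights and 31 with all 12 libraries in the fit. It ran from 6 to 25 when each library was left out in turn, and was 28 without MYC 3 and MYC 7, a setting chosen after seeing the data. Pseudocounts of 0.1 and 5 gave 17 each, filters of 5 FPKM and of a mean of 1 FPKM gave 15 each, and a robust fit with no variance trend gave 16. The cause of these differences was not tested. No gene named with a test reversed its direction under these alternatives. No paired analysis was possible because the groups compared share no replicate numbers. With 4 libraries a set and no read counts, single calls rest on few values, and 10 of the 16 calls were lost without at least 1 of the libraries.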

Other observations

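The 4 MYCN libraries, which enter no comparison here, differed among themselves in the genes that separated the MYC sets. In MYCN 1 to 4 the AP-1 gene junbb stood at 12.3, 71.4, 20.3 and 2460.1 FPKM. It was thus high in MYCN 4 only, while fos was high in both MYCN 2 and MYCN 4, at 1669 and 1429 FPKM, against 300.5 and 679.6 FPKM in MYCN 1 and MYCN 3. For irf1b the MYCN levels were 11.1, 8.26, 66.9 and 4.38 FPKM, and for cd74b they were 19.0, 5.34, 148 and 10.3 FPKM. MYCN 3 was the highest library of its group for both.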
